A study of Rattus norvegicus with 12 samples.

Results

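The AMPA receptor is the channel that carries most fast excitatory transmission in the brain, and the 10 genes described here encode its pore and the proteins that ride with it. They were 4 pore subunits (Gria1 to Gria4) and a set of 6 auxiliary proteins and scaffold (Cacng2, Cacng3, Cacng8, Cnih2, Cnih3 and Dlg4). Members were taken by gene symbol from the annotation of the array, each by the probe set (the group of probes that measures a transcript) with the highest mean over all arrays. All 10 had a probe set with that symbol alone, out of 17245 genes with such probe sets, and all 10 were among the 14847 genes tested, with log2 means from 7.74 (Cacng8) to 11.16 (Cnih2), well above the level filter of 4.

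Expression was measured in the prefrontal cortex (PFC) of 12 adult male Sprague–Dawley rats, with 1 whole-transcript array per rat. The 6 rats of the Stress group received a session of inescapable footshock (FS) of 40 min, with a current of 0.8 mA, 20 min of actual shock and gaps of 2 to 8 s, and went back to the home cage until they were killed 2 h after the session began. The 6 Control rats were never moved from the home cage, so the groups differ in handling and in the shock chamber as well as in shock. No allele or drug was involved, and the tissue piece held the PFC undivided, so each value is an average over all its areas and cells.

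AMPA receptors are tetramers of GluA1 to GluA4, encoded by Gria1 to Gria4. In most cortical pyramidal neurons GluA2 is part of the tetramer, and its edited form keeps calcium out of the channel. Transmembrane AMPA receptor regulatory proteins (TARPs, the Cacng genes) and cornichons (the Cnih genes) bind the pore, bring it to the surface and slow its closing, and PSD-95 (Dlg4) holds the TARPs in the postsynaptic density. Acute FS stress is known to raise glutamate release in the PFC. From earlier work the authors also report that expression and phosphorylation of AMPA receptor subunits changed over time after FS. The comparison here asked whether mRNA of these genes differed at 2 h, and the arrays measure neither protein nor phosphorylation.

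The log2 values per array had medians between 5.48 and 5.54, and arrays correlated across probe sets with r from 0.994 to 0.998. Markers of cortical excitatory neurons were high in every rat: Slc17a7, the vesicular glutamate transporter of cortical neurons, ran from 10.79 to 11.11, and Tbr1, a transcription factor of deep-layer neurons, from 9.57 to 10.05. Some arrays stood apart. The dimmest 10% of probe sets split the arrays into a set of 4 (Control 1 to 4) and a set of 8 (Control 5, Control 6 and all 6 stressed rats, called array set 2 here), and no source used here says what this split stands for. Markers of striatal projection neurons, cells of the neighbouring striatum, were highest in Control 5, Control 4 and Stress 4, and choroid plexus markers were high in Control 5.

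None of the 10 genes passed the threshold, and their differences between stressed and control rats were small. Of the 4 pore subunits 1 had a higher mean in stressed rats and 3 a lower one, and of the 6 auxiliary genes 1 was higher and 5 were lower. Over all 16085 probe sets tested 7 passed (limma, adjusted p of at most 0.05), which is 0.0435% (0.0373% higher and 0.00622% lower in stressed rats), and 53.0% had a higher mean in stressed rats. At an unadjusted p under 0.05 the count of members was also 0, against 6.35% of all probe sets. The median log2 difference, stressed minus control, was −0.0040 for the pore subunits and −0.015 for the auxiliary genes, beside 0.0039 over all probe sets tested.

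**Figure D1:**
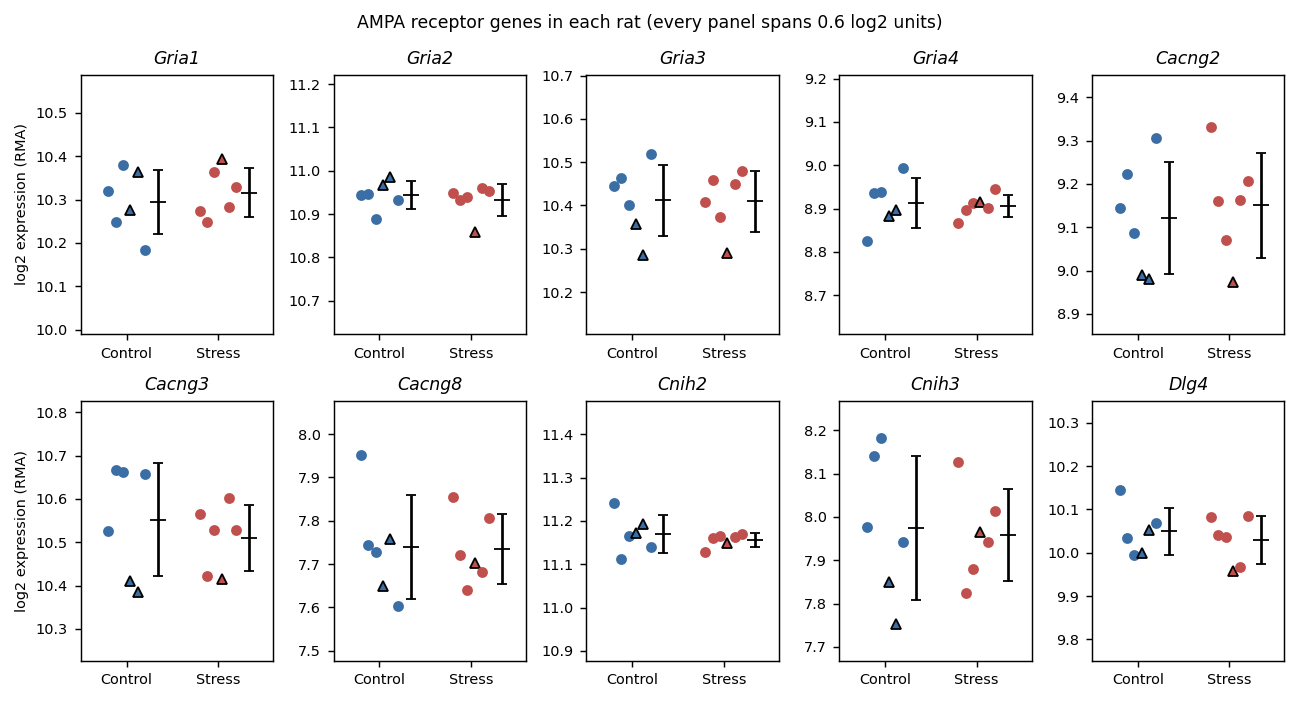
Log2 expression of the 10 members in each of 12 rats, with Control in blue, Stress in red, and the mean ± SD of each group (n = 6) beside the points. Triangles with a black edge mark Control 4, Control 5 and Stress 4, the arrays of highest striatal marker mean, and in every panel the groups overlap.

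Gria1 encodes GluA1, the subunit whose delivery to synapses accompanies potentiation. Its log2 value had a lowest, median and highest array of 10.18, 10.30 and 10.38 in controls and 10.25, 10.31 and 10.39 in stressed rats. The groups overlapped almost fully, with only Stress 4 above every control. The difference was 0.020 (SE 0.040, 95% interval −0.067 to 0.107, limma adjusted p = 0.966), which as a fold is 1.01 with an interval from 0.955 to 1.08.

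Gria2 encodes GluA2, which sets the calcium permeability of the channel. It ran from 10.89 through a median of 10.94 to 10.98 in controls and from 10.86 through 10.94 to 10.96 in stressed rats. All 12 arrays thus lay within 0.125 log2 units, and Stress 4 alone was below every control. The difference was −0.011 (SE 0.030, 95% interval −0.075 to 0.052, limma adjusted p = 0.975), a fold of 0.992 with an interval from 0.949 to 1.04. After removal of group means its SD was 0.035, smaller than that of all but 1.72% of the probe sets tested.

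Gria3 encodes GluA3, which pairs with GluA2 in a second major receptor of cortical neurons. Its lowest, median and highest values were 10.29, 10.42 and 10.52 in controls and 10.29, 10.43 and 10.48 in stressed rats, and no stressed rat lay outside the range of the controls. The difference was −0.0020 (SE 0.045, 95% interval −0.098 to 0.094, limma adjusted p = 0.996). A dimmer probe set of Gria3, with a mean of 5.89, differed by −0.012 (SE 0.058, limma adjusted p = 0.985).

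Gria4 encodes GluA4, a fast subunit best known from interneurons. It lay between 8.82 and 8.99 (median 8.92) in controls and between 8.87 and 8.94 (median 8.91) in stressed rats, again with no stressed rat outside the control range. The difference was −0.0060 (SE 0.033, 95% interval −0.076 to 0.064, limma adjusted p = 0.988).

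The TARPs varied more from rat to rat. Cacng2 encodes stargazin, the TARP named after the stargazer mouse. It ran from 8.98 through 9.12 to 9.31 in controls and from 8.97 through 9.16 to 9.33 in stressed rats, with Stress 1 above and Stress 4 just below all controls. The difference was 0.029 (SE 0.066, 95% interval −0.112 to 0.171, limma adjusted p = 0.969).

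Cacng3 encodes TARP gamma-3, which is abundant in cortex. It had the largest difference of the 10 genes, −0.042 (SE 0.058, 95% interval −0.166 to 0.081, limma adjusted p = 0.949), a fold of 0.971 with an interval from 0.891 to 1.06. Controls ran from 10.39 through 10.59 to 10.67 and stressed rats from 10.41 through 10.53 to 10.60. Control 2, Control 3 and Control 6 were higher than every stressed rat, and Control 4 and Control 5 were lower than every stressed rat, so the controls enclosed the Stress group.

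Cacng8 encodes TARP gamma-8, best known from the hippocampus. Its lowest, median and highest values were 7.60, 7.74 and 7.95 in controls and 7.64, 7.71 and 7.85 in stressed rats, which all lay inside the control range. The difference was −0.0043 (SE 0.056, 95% interval −0.124 to 0.115, limma adjusted p = 0.996).

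The cornichons came next. Cnih2 was the steadiest of the 10 genes, with an SD after removal of group means of 0.033. Controls ran from 11.11 through 11.17 to 11.24 and stressed rats from 11.13 through 11.16 to 11.17, inside the control range. The difference was −0.015 (SE 0.029, 95% interval −0.078 to 0.048, limma adjusted p = 0.966). Cnih3, its close relative, was the most variable member, with an SD of 0.139, above that of 86.5% of the probe sets tested. It ran from 7.75 through 7.96 to 8.18 in controls and from 7.82 through 7.95 to 8.13 in stressed rats. The difference was −0.016 (SE 0.072, 95% interval −0.171 to 0.139, limma adjusted p = 0.985). Within array set 2 the Cnih3 difference was 0.11 (SE 0.080, limma adjusted p = 0.837), the opposite direction. That set does not hold Control 2 and Control 3, the highest arrays. Its controls are Control 6, at 7.94, and Control 5, the lowest of all arrays, at 7.75. With the striatal marker mean in the fit the Cnih3 difference was −0.076 (SE 0.071, limma adjusted p = 0.985), and without Control 4, Control 5 and Stress 4 it was −0.10 (SE 0.070, limma adjusted p = 0.911).

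Dlg4 encodes PSD-95, the scaffold protein that anchors TARPs. Its lowest, median and highest values were 9.996, 10.04 and 10.14 in controls and 9.96, 10.04 and 10.09 in stressed rats, and only Stress 4 and Stress 5 were below all controls, by less than 0.1 log2 units. The difference was −0.021 (SE 0.036, 95% interval −0.099 to 0.057, limma adjusted p = 0.957).

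**Figure D2:**
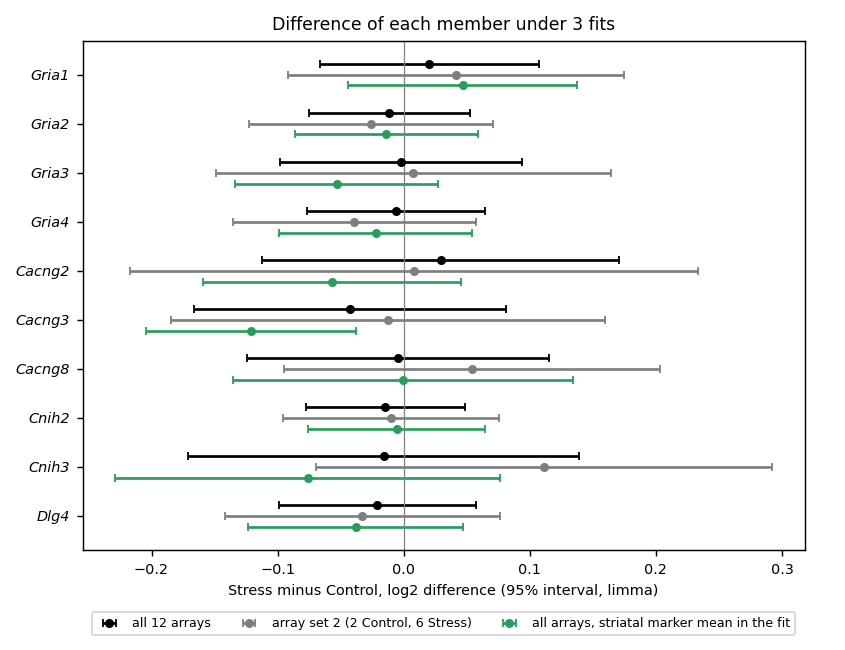
Log2 difference, Stress minus Control, of each member with its 95% limma interval, over all 12 arrays (black), within array set 2 (grey, 2 Control and 6 Stress arrays) and with the striatal marker mean of each array in the fit (green). Every interval crosses 0 except that of Cacng3 with the striatal mean in the fit, which runs from −0.205 to −0.038.

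Over all 12 arrays, for 7 of 10 members the whole 95% interval of the fold lay within 10% of the control level, a margin chosen after the values were seen. The exceptions were Cacng2 (0.925 to 1.13), Cacng3 (0.891 to 1.06) and Cnih3 (0.888 to 1.101). With the array set in the fit or within array set 2 the intervals were wider, and this held for 4 of 10 members, Gria2, Gria4, Cnih2 and Dlg4. In 0 of 10 members did the groups fail to overlap, as against 0.441% of all probe sets, and 56.5% of all probe sets had a difference no larger in size than the 0.042 of Cacng3. RMA, the authors' normalization, makes the signal distribution of all arrays equal, so a shift common to most genes cannot be seen.

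**Figure D3:**
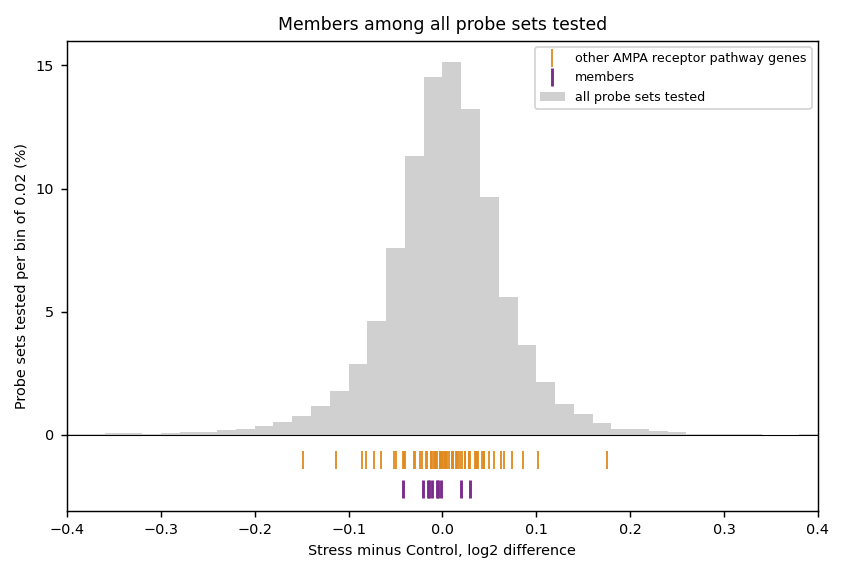
Share of the 16085 probe sets tested in bins of 0.02 on the log2 difference (Stress minus Control) between −0.4 and 0.4, with ticks for the 10 members (purple) and 65 other AMPA receptor pathway genes (orange). All members lie between −0.042 and 0.029, in the middle of the distribution, and 0.385% of probe sets fall outside the plotted range.

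Other genes that build, hold or move AMPA receptors were taken from lists of 74 symbols, of which 65 were tested. None passed the threshold, and 37 had a higher and 28 a lower mean in stressed rats, with a median difference of 0.0033. An unadjusted limma p under 0.05 was reached by 0 of the 65. Over all probe sets tested 0.0435% passed the threshold, 6.35% had an unadjusted limma p under 0.05 and 53.0% had a higher mean in stressed rats. The differences of the 65 ran from −0.15 (Myo5b) to 0.17 (Arc), and their limma adjusted p was at least 0.808. This range was wider than that of the 10 members, but a range also grows with the number of genes. The median size of a difference was 0.024 for the 65, 0.015 for the 10 members and 0.036 over all probe sets tested.

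Further auxiliary and complex proteins had 8 of 15 genes higher. Cacng5, a TARP, was at −0.11 (SE 0.11), Shisa7 and Shisa8, of the CKAMP family of auxiliary proteins, were at −0.086 (SE 0.060) and −0.082 (SE 0.052), and their limma adjusted p ran from 0.846 to 0.918. With the striatal marker mean in the fit Cacng5 was at 0.0058. Of 7 genes of assembly in the endoplasmic reticulum or of RNA editing 4 were higher. Abhd6, a hydrolase that limits delivery of the receptor to the surface, was at 0.074 (SE 0.050), Porcn, an acyltransferase that binds the receptor, at −0.051 (SE 0.048) and Adarb1, the ADAR2 enzyme that edits GluA2 mRNA, at −0.050 (SE 0.050). Abhd6 and Porcn turned direction within array set 2, to −0.059 and 0.047.

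Scaffolds and anchors had 14 of 21 genes higher. Shank2, a scaffold beneath PSD-95, was at 0.065 (SE 0.038), Pick1, which binds the tail of GluA2, at 0.044 (SE 0.036) and Akap5, which anchors kinase A and calcineurin near the receptor, at −0.073 (SE 0.062), or −0.18 within array set 2. Trafficking genes and kinases or phosphatases had 11 of 22 genes higher. Myo5b, a myosin of recycling endosomes, was at −0.15 (SE 0.075, limma adjusted p = 0.808; −0.26 within array set 2), Myo6, a myosin of endocytosis, at 0.10 (SE 0.054; 0.029 within array set 2), and Ppp3cb, a catalytic subunit of calcineurin, at 0.063 (SE 0.038). Arc, the activity-induced protein that drives receptor endocytosis, had the largest difference in size of these 65 genes, 0.17, but also the largest SE, 0.161 (limma adjusted p = 0.907; 0.041 within array set 2), and was singled out after its values were seen.

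Over the 12 arrays the members spanned from 0.125 (Gria2) to 0.430 (Cnih3) log2 units, and some of them followed the cell markers of the tissue piece. Cacng3 had its lowest values, 10.39, 10.41 and 10.41, in Control 5, Control 4 and Stress 4, the same 3 arrays that had the highest striatal marker means. Cacng2 had its lowest values in the same arrays, at 8.98, 8.99 and 8.97, and so did Gria3, at 10.29, 10.36 and 10.29. Gria2 did not share this order, with its highest values, 10.98 and 10.97, in Control 5 and Control 4 and its lowest in Stress 4. In bulk tissue fewer cells of a type and less RNA per cell cannot be told apart.

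**Figure D4:**
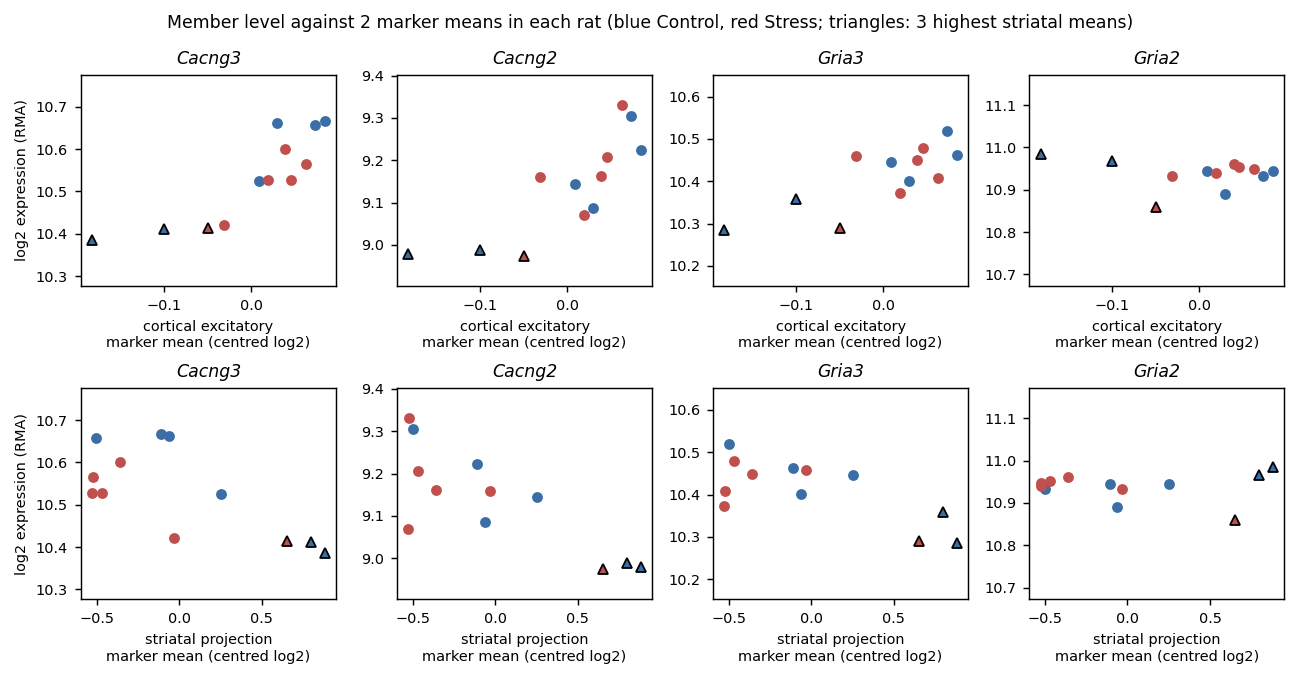
Log2 expression of Cacng3, Cacng2, Gria3 and Gria2 (vertical axes, each spanning 0.5 log2 units) against the mean centred log2 level of cortical excitatory markers (upper row) and of striatal projection neuron markers (lower row) in each rat, with Control in blue and Stress in red. The triangles, Control 4, Control 5 and Stress 4, hold the lowest Cacng3, Cacng2 and Gria3 values in both rows, while Gria2 stays within 0.125 log2 units.

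Relations of each member to the mean of each of 9 marker lists were computed over the 12 arrays after the mean of each group was removed, 90 relations in all, with p-values from 100000 permutations within groups and adjusted over the 90. By Pearson's r 12 passed an adjusted p of 0.05, by Spearman's rho 5 did, and those 5 passed by both. The highest was that of Cacng3 with the cortical excitatory markers (r = 0.93, permutation p = 0.00015, adjusted 0.0135; rho = 0.92, permutation p = 0.00073, adjusted 0.0321). It was 0.87 without Control 4 and Control 5, the arrays farthest from the median, 0.82 without those 2 and Stress 4, and 0.95 within array set 2. Array set 2 has only 2 controls and keeps Control 5 and Stress 4. Values of r within it, here and below, thus cannot show whether a relation holds without those arrays. Cacng3 ran opposite to the striatal markers (r = −0.89, permutation p = 0.00077, adjusted 0.0234; rho = −0.86, permutation p = 0.00211, adjusted 0.0446), at −0.78 without Control 4 and Control 5, −0.73 in the 9 arrays outside the high striatal ones and −0.90 within array set 2.

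Cacng2 also varied with the cortical excitatory markers across rats (r = 0.80, permutation p = 0.0015, adjusted 0.0326; rho = 0.87, permutation p = 0.00107, adjusted 0.0321), with r of 0.77 without Control 4 and Control 5, 0.65 without the 3 high striatal arrays and 0.85 within array set 2. For Gria3 the relation to the same markers had r = 0.78 (permutation p = 0.00386, adjusted 0.0412) and rho = 0.73 (permutation p = 0.0165, adjusted 0.135). It rested on the 3 arrays of high striatal level: r was 0.54 without Control 4 and Control 5 and 0.20 without all 3, and 0.81 within array set 2. Gria3 ran opposite to the astrocyte markers (r = −0.80, permutation p = 0.00539, adjusted 0.0441; rho = −0.84, permutation p = 0.00248, adjusted 0.0446), with r of −0.85 without Stress 6 and Control 2 and −0.88 within array set 2. Cnih3 ran opposite to markers of oligodendrocyte precursors (r = −0.89, permutation p = 0.00078, adjusted 0.0234; rho = −0.90, permutation p = 0.00088, adjusted 0.0321), at −0.80 without Control 2 and Control 3 and −0.87 within array set 2. Without the 3 high striatal arrays r was −0.67 for Gria3 with the astrocyte markers and −0.83 for Cnih3 with the precursor markers. Cacng3 with the precursors, and Cacng2 and Gria3 with the striatal markers, passed by r but not by rho. Their r was −0.87, −0.83 and −0.80 (permutation p of 0.00352, 0.00276 and 0.00458, each adjusted 0.0412), or −0.76, −0.48 and −0.16 without the 3 high striatal arrays. The lists are not independent, since Control 4, Control 5 and Stress 4 had both the lowest cortical excitatory and the highest striatal means. Gria1, Gria2, Gria4, Cacng8 and Dlg4 had no relation past the threshold by either coefficient, with Gria2 at −0.19 for the cortical excitatory and −0.088 for the striatal markers (adjusted permutation p of 0.800 and 0.921). For Gria2 these values rested on Control 4 and Control 5, its highest arrays: without them r was 0.68 and −0.70, while it was 0.41 and −0.048 without Stress 4 as well, and 0.0010 and −0.33 within array set 2.

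**Figure D5:**
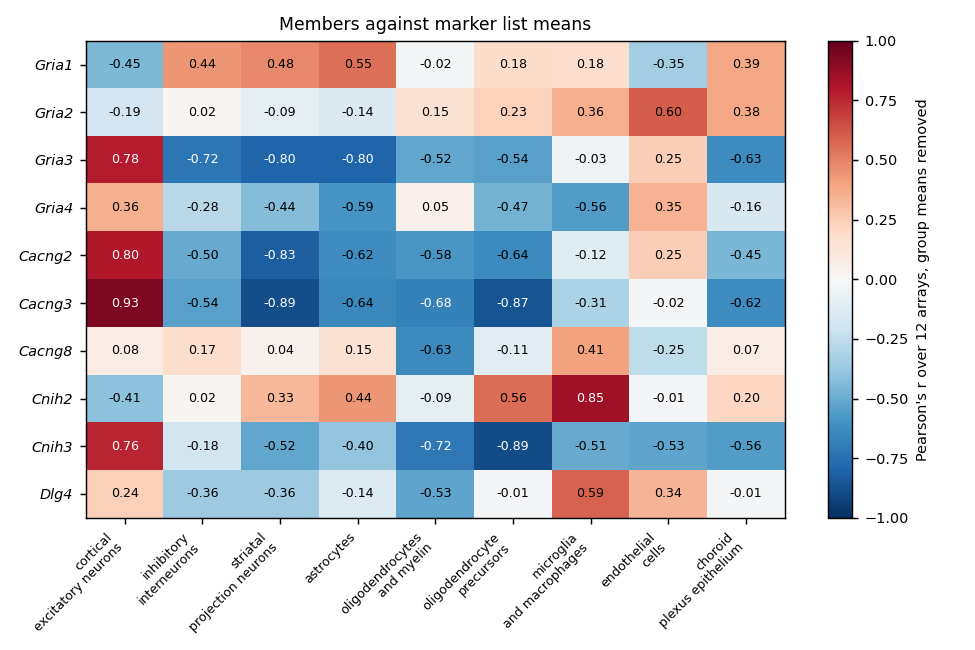
Pearson's r, over 12 arrays with group means removed, of each member (rows) with the mean of each marker list (columns), from −1 (blue) to 1 (red). Cacng3, Cacng2, Gria3 and Cnih3 are positive for cortical excitatory neurons (0.76 to 0.93) and negative for striatal, astrocyte and oligodendrocyte lists. Gria1, Gria2, Gria4, Cacng8 and Dlg4 stay between −0.63 and 0.60 over all lists.

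Among the members themselves 45 pairs were compared in the same way, and none passed after adjustment. The closest pair was Gria3 with Cacng2 (r = 0.83, permutation p = 0.00261, adjusted 0.117; rho = 0.85, permutation p = 0.00183, adjusted 0.0823; r of 0.71 without Control 5 and Stress 4, 0.82 within array set 2). Cacng2 and Cacng3 had r = 0.71 (permutation p = 0.0177, adjusted 0.159) and rho = 0.67 (permutation p = 0.034, adjusted 0.383; r of 0.71 without Stress 1 and Stress 4, 0.78 within array set 2, 0.27 without the 3 high striatal arrays). Gria1 ran opposite to Gria3, with r = −0.73 (permutation p = 0.0133, adjusted 0.159) and rho = −0.73 (permutation p = 0.0163, adjusted 0.285; r of −0.47 without Control 6 and Stress 4, −0.88 within array set 2). Without the 3 high striatal arrays r was 0.56 for Gria3 with Cacng2 and −0.75 for Gria1 with Gria3.

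The marker lists themselves were not level between groups. All 13 striatal markers above the level of 4 were lower on average in stressed rats, with centred list means from −0.50 to 0.88 in controls and from −0.53 to 0.65 in stressed rats. Cortical excitatory markers were higher for 8 of 11, with list means from −0.18 to 0.084 in controls and from −0.049 to 0.063 in stressed rats. With the striatal mean in the fit the difference of Cacng3 was −0.12 (SE 0.039, 95% interval −0.205 to −0.038, limma unadjusted p = 0.00777, adjusted p = 0.610), beside −0.042 without it, and that of Cacng2 turned from 0.029 to −0.057 (SE 0.048, limma adjusted p = 0.968). Without Control 4, Control 5 and Stress 4, Cacng3 was at −0.10 (SE 0.048, limma adjusted p = 0.827), and within array set 2 it was at −0.012 (SE 0.077, limma adjusted p = 0.982). All 9 oligodendrocyte and myelin markers were higher in stressed rats (list means from −0.35 to 0.24 in controls and −0.056 to 0.22 in stressed rats). Control 1, Control 2 and Control 3 had the lowest of these means and Control 4 the highest. Control 5 and Control 6, in array set 2, were at 0.091 and −0.073. Of 8 endothelial markers 6 were lower, and their list means, unlike those of the other lists, did not overlap (−0.014 to 0.15 against −0.14 to −0.016). The nearest arrays were Control 3 at −0.0138 and Stress 3 at −0.0161. All 8 choroid plexus markers were lower, with list means from −0.39 to 2.77 in controls and −0.46 to −0.16 in stressed rats. The part of these lists in the members' values was not tested.

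Promoters are shown for 3 members because Cacng2 and Cacng3 both followed the cortical excitatory markers and because Cnih2, the steadiest gene, was the 1 member, of those with a promoter in the table, with a glucocorticoid receptor hexamer in this window. They come from RefSeq (build GRCr8), which gave 7 of the 10 members, and run from 250 bases before to 50 after the start of the gene, 5′ to 3′ on the strand of the gene, with motif matches in capitals. Cacng2 is on the minus strand at chr7:111577708-111578007, Cacng3 on the plus strand at chr1:186632312-186632611 and Cnih2 on the minus strand at chr1:211834388-211834687.
Cacng2: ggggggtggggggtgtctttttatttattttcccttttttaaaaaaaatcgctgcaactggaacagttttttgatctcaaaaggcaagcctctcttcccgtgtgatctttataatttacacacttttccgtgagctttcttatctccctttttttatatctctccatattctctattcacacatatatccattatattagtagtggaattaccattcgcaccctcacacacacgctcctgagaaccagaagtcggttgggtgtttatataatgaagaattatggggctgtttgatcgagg
Cacng3: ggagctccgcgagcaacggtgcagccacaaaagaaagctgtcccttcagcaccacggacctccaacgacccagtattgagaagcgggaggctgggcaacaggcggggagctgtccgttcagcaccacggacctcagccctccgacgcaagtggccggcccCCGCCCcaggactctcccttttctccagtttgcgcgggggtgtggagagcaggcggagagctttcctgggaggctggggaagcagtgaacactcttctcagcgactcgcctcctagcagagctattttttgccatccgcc
Cnih2: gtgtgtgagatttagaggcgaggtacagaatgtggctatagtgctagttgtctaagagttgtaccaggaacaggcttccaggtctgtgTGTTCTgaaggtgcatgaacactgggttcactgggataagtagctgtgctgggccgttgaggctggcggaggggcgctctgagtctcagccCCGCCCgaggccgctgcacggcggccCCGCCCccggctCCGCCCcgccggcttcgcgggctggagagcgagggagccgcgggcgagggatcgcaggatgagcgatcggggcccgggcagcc
The motifs searched, on both strands, were the GC box (GGGCGG), the cAMP response element (TGACGTCA), an E-box bound by NeuroD factors (CAGATG), the hexamer bound by the glucocorticoid receptor (AGAACA) and the glucocorticoid receptor palindrome, which contains that hexamer. They are found in 33.1%, 1.83%, 16.6%, 20.7% and 0.0149% of all 33469 promoters of the same length. Cacng3 had 1 GC box, Cnih2 had 3 GC boxes and 1 hexamer (read as TGTTCT on this strand), and Cacng2 had 0 matches. Cacng2 and Cacng3, which were lowest in the same rats, differed in base composition here, with 39.0% and 63.0% G and C beside a median of 51.7% over all promoters. A match of these letters is a description of the sequence and no evidence of binding.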

How the data were processed

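Total RNA from PFC (250 ng per rat) was amplified with a whole-transcript kit and hybridised to Affymetrix Rat Gene ST arrays. The authors deposited log2 values per probe set from RMA (oligo, version 1.58.0), which corrects background, equalises the arrays and summarises probes, so that differences of dim probe sets are understated. Arrays carry no read depth, and their number limits the precision.

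Of 29214 probe sets the platform annotation gave 1 symbol for 18644, several for 962, and did not list 9608. Other symbols were updated through a RefSeq table (GRCr8). No source used here names the build of the array annotation.

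Stress was compared with Control in limma (lmFit, eBayes; version 3.58.1, R 4.3.3), with no term but the group, over 16085 probe sets with 1 symbol and a mean above 4, and p-values received the Benjamini–Hochberg adjustment over all of these (threshold 0.05), after the study's methods. The fit was tested on simulated data. Array sets came from Ward clustering of the dimmest 10% of probe sets. Marker list means were taken over genes centred on the 12 arrays.

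Named genes were all 10 members and, of each other pathway list, the 3 with the smallest p. Members and lists (9 cell types with 87 symbols) were chosen with earlier results of these data known. Alternatives were another filter, other probe sets, a trended robust prior, array set, striatal mean, median centring, replicate block, single arrays left out and an exact permutation test. Same-numbered rats of the groups did not deviate together in every pair (correlations from −0.14 to 0.42), so numbers were not used to pair them in the main fit. Control 1, Control 4 and Control 6 did correlate best with the stressed rat of their own number. So did Stress 3, Stress 4 and Stress 6 with the control of theirs.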

Additional observations from a re-analysis of the deposited data

Results flagged for a closer look

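Gria2 in the Stress group had 1 array apart from the others. Stress 4 was at 10.86, and the next lowest stressed rat was at 10.93, a gap of 0.73 of the whole range of that group (10.86 to 10.96), more than Dixon's 95% limit for 6 samples. Without Stress 4 the difference of Gria2 was 0.0031 in place of −0.011. It was the 1 such case in 22 groups of arrays, counting the second probe set of Gria3, and chance alone gives about 1 in 20.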

How the results depend on the processing

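The count of members past the threshold was 0 in all 23 alternatives, as was that of other pathway genes. Alternatives gave 240 differences of members, of which 69 equal the value over all arrays, mostly because the setting changes only the error or the genes tested. Of the other 171, 27 turned direction, and the lowest limma adjusted p was 0.610. These counts include both the fit with the array set and that within array set 2. Both must give the same difference, since the other set holds only controls. The medians moved by less than 1 SD between rats, from −0.015 to 0.0042 (pore) and from −0.030 to −0.0014 (auxiliary) without single arrays, and they were −0.018 and −0.048 with the striatal mean in the fit and −0.0092 and −0.00091 within array set 2. Members that turned direction had differences over all arrays smaller than their SE, and the cause was not tested. With the array set in the fit or within array set 2, Gria3 was at 0.0075, Cacng8 at 0.054, Cnih3 at 0.11, Abhd6 at −0.059 and Porcn at 0.047. With the striatal mean in the fit Cacng2 was at −0.057 and Cacng5 at 0.0058. Without Control 4, Control 5 and Stress 4, chosen after seeing the data, Gria2 was at 0.019 and Cacng2 at −0.0039. Without single arrays the ranges were −0.0021 to 0.037 (Gria1), −0.022 to 0.0031 (Gria2), −0.027 to 0.022 (Gria3), −0.024 to 0.010 (Gria4), −0.0066 to 0.066 (Cacng2), −0.031 to 0.038 (Cacng8) and −0.060 to 0.026 (Cnih3), and Cacng3, Cnih2 and Dlg4 stayed below 0. Probe sets past the threshold over the whole table numbered 7, and 1 with the array set in the fit, 1 within array set 2, 11 with the striatal mean in the fit and 4 to 8 without single arrays. The replicate block, whose numbers no source used here explains, changed no call of a member (Gria1 stayed at 0.020, SE 0.041). With it the SE of Cacng2 fell from 0.066 to 0.048, and that of Cnih3 rose from 0.072 to 0.076. Signal limits these values little, since all members were bright.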

Other observations

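Cnih2, the cornichon of smallest spread, had a positive relation with the mean of 8 microglia and macrophage markers over the 12 arrays after removal of group means (r = 0.85, permutation p = 0.00439, adjusted 0.0412 over 90 relations; rho = 0.82, permutation p = 0.00434, adjusted 0.0651). It was 0.53 without Control 1 and Control 2, 0.89 without the 3 arrays of highest striatal mean and 0.66 within array set 2. Control 1 had both the highest Cnih2 value, 11.24, and the highest microglial mean, 0.18, and Control 2 the lowest of both, at 11.11 and −0.13.

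Cacng3 and Gria3 ran opposite to the choroid plexus markers (r = −0.62 and −0.63, permutation p of 0.00181 and 0.00591, adjusted 0.0326 and 0.0443), but not past the threshold by rho (−0.61 and −0.48, permutation p of 0.0116 and 0.066, adjusted 0.111 and 0.283). The choroid plexus markers stood at 2.77 in Control 5, while the other 11 arrays were at or below −0.0070. Without Control 5 and Control 4 r was −0.58 for Cacng3 and −0.45 for Gria3, and without Stress 4 as well −0.44 and −0.17. Within array set 2 r was −0.81 for Cacng3 and −0.75 for Gria3. That set keeps Control 5, so its values cannot show whether the relations hold without that array.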
